A study of Homo sapiens with 20 samples.

Results

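The luminal secretory and innate defence genes described here are 10 genes, SCGB1A1, LCN2, LTF, PIGR, SLPI, PI3, WFDC2, CD14, SAA1 and C3, followed through 20 arrays of 1 cell line. They were chosen by their signals against control in earlier results of these arrays, among them the falls of SCGB1A1 and CD14 after depletion, and every probe set annotated to one of the symbols was taken. The array carried 15 such probe sets among its 54613 that are not controls. In the fit across 19775 genes, 9 of the 10 members are present. SAA1 is missing there because both of its probe sets also match SAA2, so their signal is given below as one shared by SAA1 and SAA2.

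The cells were MII cells (MCF10-T1k), a RAS-transformed derivative of human mammary epithelial cells, grown in medium with horse serum, insulin, EGF, hydrocortisone and cholera toxin. They were transfected with control siRNA against GFP (siGFP), siRNA against APC (siAPC), siRNAs against APC and TAZ (siAPC/siTAZ), siRNA against beta-catenin (sibcat), or siRNAs against beta-catenin and TAZ (sibcat/siTAZ), with 4 biological replicates, A to D, in each group. No group received TAZ siRNA alone. Total RNA was hybridised to Affymetrix microarrays, and the values are log2 signals, so a difference of 1 is a doubling. The labels do not say that replicates were separate cultures, and p-values therefore measure only the spread between these samples.

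APC holds together the complex that sends beta-catenin to destruction, beta-catenin carries the Wnt signal to TCF/LEF factors in the nucleus, and TAZ (gene WWTR1) is a coactivator of TEAD factors in the Hippo pathway that the same destruction complex also holds in check. The members encode proteins of epithelial secretion and innate defence, some released by luminal cells and some, such as PIGR and CD14, acting as receptors. They bind iron or its carriers (lactoferrin, lipocalin 2), block neutrophil proteases (SLPI, elafin), carry antibodies across the cell (the polymeric immunoglobulin receptor), sense bacterial lipopolysaccharide (CD14) or belong to the acute phase and complement systems (serum amyloid A, C3). Many are known targets of inflammatory signals through NF-kB, C/EBP and STAT factors.

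The siRNA targets were low where the labels place the siRNA. APC differed from control by -0.88 ± 0.05 (log2, SE) in siAPC and by -1.34 ± 0.05 in siAPC/siTAZ cells. CTNNB1, the beta-catenin gene, differed by -1.34 ± 0.05 in sibcat and by -2.74 ± 0.05 in sibcat/siTAZ cells. WWTR1 differed by -3.08 ± 0.05 and -2.65 ± 0.05 in the groups with TAZ siRNA, and by -0.41 ± 0.05 in siAPC and -0.43 ± 0.05 in sibcat cells. Cells with added TAZ siRNA thus also had less APC or CTNNB1 RNA than the matching single depletion, and the share of each depletion in a change between those groups cannot be told apart. All 6 breast epithelium markers measured (EPCAM, CDH1, KRT5, KRT14, KRT8, KRT18) lay above the median of all array values, 5.09, in every group, so the line carried luminal and basal keratins side by side. Of 6 fibroblast markers, 3 or 4 also lay above that median in each group. Their control means were 12.325 for DCN, 9.555 for COL1A1, 5.85 for PDGFRB, 5.445 for COL3A1, 4.45 for COL1A2 and 2.85 for LUM. Of 7 leukocyte markers, 1 or 2 lay above that median: CSF1R in every group and CD3E in all but siAPC cells. PTPRC, the pan-leukocyte marker, stayed between 2.67 and 2.73.

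Against control, most members had much lower signals in each depleted group. The choice of members used these differences, so they are a description without a test. Of the 9 members in the fit, 8 were called lower in siAPC cells at an adjusted p under 0.05, where 18.7% of all genes were called lower and 21.3% higher. In sibcat cells 7 were called lower, against 15.7% of all genes lower and 21.4% higher. In siAPC/siTAZ cells 7 were lower and 1 higher, beside 24.3% of all genes lower and 23.0% higher, and in sibcat/siTAZ cells 7 were lower and 1 higher, beside 19.5% lower and 25.4% higher. The median difference of the 9 members was -2.01, -1.30, -2.15 and -1.82 in siAPC, sibcat, siAPC/siTAZ and sibcat/siTAZ cells, while the median of all genes lay between -0.0375 and 0. Nothing is read from these counts, because low signals were a ground for choosing the genes. All 4 comparisons share the same 4 control arrays, so a trait of those arrays would enter each of them. In RNA of a whole culture, fewer cells that make a transcript and less of it per cell cannot be told apart.

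**Figure D1:**
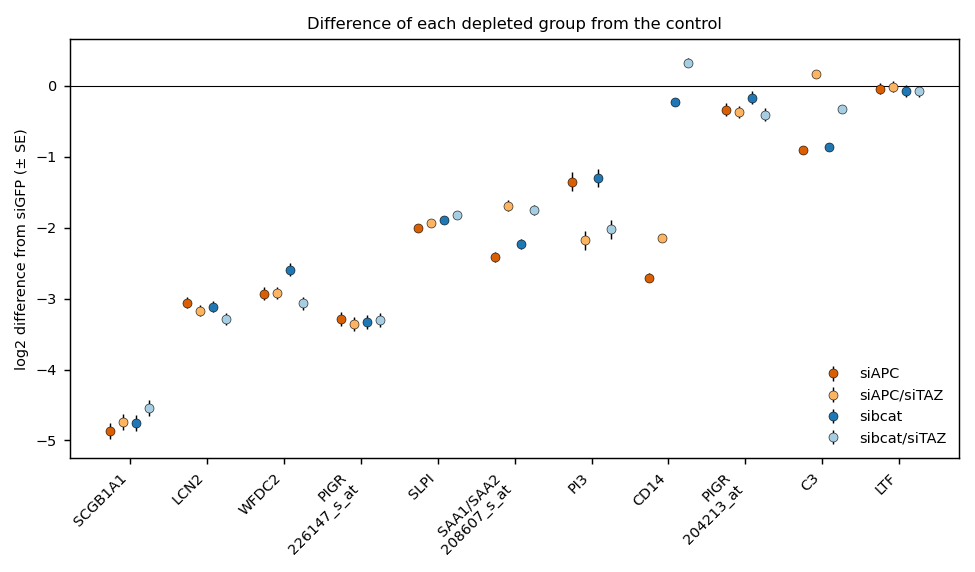
Log2 difference of each depleted group from siGFP (vertical axis) for the members (horizontal axis), with PIGR shown by both of its probe sets and SAA1/SAA2 by 1; points are differences of group means and bars are standard errors from the fit (n = 4 arrays a group). SCGB1A1 lies lowest, near -4.75, LTF lies at 0 within its errors, and CD14 is the member whose siAPC and sibcat points stand far apart.

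SCGB1A1 encodes uteroglobin, a small secretoglobin that airway club cells release. Its log2 signal on the control arrays was 7.80, 7.85, 7.91 and 7.86. In siAPC cells it was 3.22, 2.98, 3.07 and 2.68, and in sibcat cells 2.94, 2.91, 3.42 and 3.15. Every depleted array lay far under every control array, and all 16 read below the array median, where signals are compressed. The siAPC/siTAZ arrays read 2.91, 3.03, 3.18 and 3.32, and the sibcat/siTAZ arrays 3.40, 3.34, 3.31 and 3.18. The difference from control was -4.87 ± 0.11 in siAPC, -4.75 ± 0.11 in sibcat, -4.75 ± 0.11 in siAPC/siTAZ and -4.55 ± 0.11 in sibcat/siTAZ cells. By size of fall SCGB1A1 held rank 2 of 19775 genes in siAPC and rank 5 in sibcat cells, with rank 1 and rank 6 in the combined depletions. The 4 depleted groups overlapped each other, so no order among them can be drawn.

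LCN2, lipocalin 2, withholds iron from bacteria by binding their siderophores. Its control arrays read 8.71, 8.90, 8.70 and 8.83, the siAPC arrays 5.86, 5.68, 5.83 and 5.53, and the sibcat arrays 5.56, 5.67, 5.74 and 5.72. The difference from control was -3.06 ± 0.08 (8.34-fold lower) in siAPC and -3.11 ± 0.08 (8.65-fold lower) in sibcat cells. With TAZ siRNA added it read 5.60, 5.45, 5.77 and 5.65 in siAPC/siTAZ and 5.40, 5.55, 5.61 and 5.43 in sibcat/siTAZ cells. All depleted groups overlapped their neighbours in the order of levels, with siAPC highest and sibcat/siTAZ lowest. LTF, lactoferrin, which binds free iron in milk and other secretions, behaved differently. It lay between 3.87 and 4.36 on all 20 arrays, below the array median, and its differences from control ran from -0.075 to -0.01. At that signal the array gives no sign of LTF transcript above its low range in any group.

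Promoters are shown for 3 members whose control differences follow different patterns: LCN2 and WFDC2, which are low in all 4 depleted groups, and CD14, which lies far lower in the groups with siAPC than in those with sibcat. Each is the RefSeq sequence on GRCh38.p14 from 250 bases before the annotated start to 50 after it, 5′ to 3′ on the gene's strand. The table used here held 5 members, LCN2, WFDC2, CD14, PIGR and LTF. Capitals mark matches, on either strand, to CTTTGAT (TCF/LEF), GGAATG (TEAD), TGANTCA (AP-1), TTGCNNAA (C/EBP), TTCNNNGAA (STAT) or the NF-kB consensus. The LCN2 window is chr9:128149203-128149502 on the plus strand, the WFDC2 window chr20:45469503-45469802 on the plus strand, and the CD14 window chr5:140633126-140633425 on the minus strand.
LCN2: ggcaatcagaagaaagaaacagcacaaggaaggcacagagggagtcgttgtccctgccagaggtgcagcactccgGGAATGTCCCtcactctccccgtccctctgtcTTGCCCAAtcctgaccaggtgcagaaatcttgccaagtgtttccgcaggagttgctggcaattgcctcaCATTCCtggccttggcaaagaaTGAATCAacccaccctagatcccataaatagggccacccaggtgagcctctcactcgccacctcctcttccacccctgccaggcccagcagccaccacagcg
WFDC2: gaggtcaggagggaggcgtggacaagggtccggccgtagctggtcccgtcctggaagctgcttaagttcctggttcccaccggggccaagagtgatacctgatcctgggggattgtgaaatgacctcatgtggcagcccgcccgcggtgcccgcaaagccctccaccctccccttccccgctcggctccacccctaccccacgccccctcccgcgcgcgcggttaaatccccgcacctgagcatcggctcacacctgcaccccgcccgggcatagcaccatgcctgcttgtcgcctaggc
CD14: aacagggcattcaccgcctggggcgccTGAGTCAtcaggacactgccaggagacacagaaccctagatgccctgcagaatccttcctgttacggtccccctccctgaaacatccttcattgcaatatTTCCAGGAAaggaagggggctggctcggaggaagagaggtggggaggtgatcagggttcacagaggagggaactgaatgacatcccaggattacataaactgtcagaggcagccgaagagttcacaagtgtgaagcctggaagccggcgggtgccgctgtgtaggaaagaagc

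In the LCN2 window the first capitals hold a TEAD match and an NF-kB match that overlap and begin 175 bases before the start. A C/EBP match begins at 143 bases, a further TEAD match at 74 bases and an AP-1 match at 52 bases before it. The CD14 window holds an AP-1 match 223 bases and a STAT match 123 bases before the start. The WFDC2 and PIGR windows held none of the 6 motifs, and the LTF window held 1 TEAD match, 60 bases before the start. Over 27305 promoters of the same length, 2.64% held the TCF/LEF letters, against 0 of the 5 members. The TEAD letters stood in 14.0% of promoters and in 2 of the 5 members, AP-1 in 7.76% and 2, C/EBP in 10.6% and 1, STAT in 7.88% and 1, and NF-kB in 5.72% and 1. These matches describe letters in a short window and no binding was measured.

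SLPI, PI3 and WFDC2 belong to the whey acidic protein (WAP) family and lie close together on chromosome 20, in the order PI3, SEMG1, SEMG2, SLPI, MATN4, RBPJL, SDC4, SYS1, TP53TG5, DBNDD2, PIGT, WFDC2 among protein-coding genes. SLPI, the secretory leukocyte protease inhibitor, read 12.15, 12.12, 12.14 and 12.17 on the control arrays. It read 10.16, 10.11, 10.12 and 10.17 in siAPC and 10.25, 10.19, 10.29 and 10.29 in sibcat cells. Its replicates lay within 0.05 of each other in the control group, and its difference from control was -2.01 ± 0.04 (4.01-fold lower) in siAPC and -1.89 ± 0.04 (3.71-fold lower) in sibcat cells. The siAPC/siTAZ arrays read 10.24, 10.15, 10.27 and 10.16 and the sibcat/siTAZ arrays 10.33, 10.36, 10.28 and 10.32. From low to high the group means ran siAPC, siAPC/siTAZ, sibcat, sibcat/siTAZ and control, and each depleted group overlapped its neighbour in that order.

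WFDC2 encodes HE4, a secreted WAP protein of reproductive and airway epithelium. Its brightest probe set read 8.85, 9.12, 9.11 and 9.25 in control, 6.03, 6.23, 6.21 and 6.14 in siAPC, and 6.35, 6.47, 6.37 and 6.78 in sibcat cells. The siAPC/siTAZ arrays read 6.21, 6.18, 6.15 and 6.11, and the sibcat/siTAZ arrays 6.03, 5.99, 5.89 and 6.15. All sibcat arrays lay above all arrays of the other depleted groups. The differences from control were -2.93, -2.59, -2.92 and -3.07 in siAPC, sibcat, siAPC/siTAZ and sibcat/siTAZ cells, each ± 0.09. The other 2 WFDC2 probe sets read between 3.42 and 4.37 on all arrays, below the array median, and their differences from control lay between -0.64 and -0.08.

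PI3 encodes elafin, an inhibitor of neutrophil elastase, and was the WAP member with a clear step between single and combined depletions. Probe set 203691_at read 6.90, 7.43, 7.43 and 7.27 in control, 5.83, 5.77, 6.09 and 5.94 in siAPC, and 5.09, 5.12, 4.85 and 5.26 in siAPC/siTAZ cells. It read 5.99, 5.84, 5.80 and 6.20 in sibcat and 5.41, 5.37, 4.87 and 5.30 in sibcat/siTAZ cells. The 5 groups thus formed 3 levels, with the single depletions overlapping each other and the combined depletions overlapping each other. Differences from control were -1.35 ± 0.13 in siAPC and -1.30 ± 0.13 in sibcat cells, and -2.18 ± 0.13 and -2.02 ± 0.13 in the matching combined depletions. The other PI3 probe set, 41469_at, showed the same 3 levels, with group means of 6.41 in control, 4.63 and 4.56 in siAPC and sibcat cells, and 3.68 and 3.71 with TAZ siRNA added, so all 4 depleted means lay below the array median.

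PIGR, the polymeric immunoglobulin receptor that carries secretory IgA across the epithelium, was read by 2 probe sets that disagreed. Probe set 226147_s_at read 6.30, 6.40, 5.98 and 6.15 in control cells. It read 3.14, 2.86, 2.85 and 2.81 in siAPC and 2.65, 2.99, 2.93 and 2.92 in sibcat cells, and from 2.75 to 3.11 in the combined depletions. By this probe set PIGR differed from control by -3.29 ± 0.10 in siAPC and -3.34 ± 0.10 in sibcat cells, with the depleted arrays as low as those of SCGB1A1 and in the same compressed range. Probe set 204213_at has the higher mean over all arrays, though not in control cells, and stands for the gene in the fit. It read 6.08, 5.90, 5.93 and 5.65 in control and 5.46, 5.56, 5.74 and 5.46 in siAPC cells. By it PIGR differed from control by only -0.34 ± 0.09 in siAPC and -0.17 ± 0.09 in sibcat cells, with groups that overlapped. In siAPC/siTAZ cells the difference was -0.37 ± 0.09, again with overlap. In sibcat/siTAZ cells it was -0.405 ± 0.09, with all arrays below those of control. Which of the 2 follows the transcript of this gene was not tested.

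**Figure D2:**
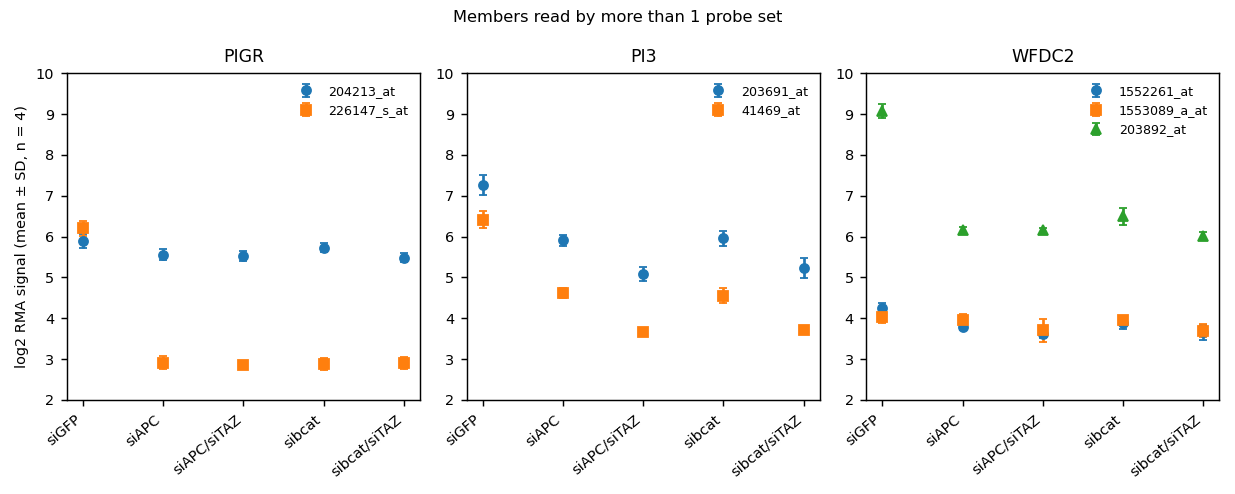
Log2 RMA signal (mean and SD of 4 arrays, vertical axis) of every probe set of PIGR, PI3 and WFDC2 in the 5 groups (horizontal axis). For PIGR, 226147_s_at drops from 6.21 to about 2.9 while 204213_at stays between 5.49 and 5.89; both PI3 probe sets step down together, and the 2 dim WFDC2 probe sets stay near 4.

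CD14, the co-receptor that hands lipopolysaccharide to Toll-like receptor 4, separated APC from beta-catenin depletion. It read 7.78, 7.74, 7.92 and 7.88 in control cells, 5.25, 4.98, 5.15 and 5.13 in siAPC cells, and 7.58, 7.51, 7.61 and 7.70 in sibcat cells. The siAPC arrays lay more than 2 log2 units under all sibcat arrays, which themselves lay just under the control arrays. With TAZ siRNA added the signal was 5.71, 5.77, 5.59 and 5.66 in siAPC/siTAZ and 8.20, 8.10, 8.13 and 8.20 in sibcat/siTAZ cells. The differences from control were -2.70 ± 0.06 (6.51-fold lower) in siAPC, -2.15 ± 0.06 in siAPC/siTAZ, -0.23 ± 0.06 in sibcat and 0.33 ± 0.06 in sibcat/siTAZ cells. No 2 of the 5 groups overlapped, and the order from low to high was siAPC, siAPC/siTAZ, sibcat, control and sibcat/siTAZ. CD14 is also a monocyte gene. PTPRC, the pan-leukocyte marker, lay at the bottom of the signal range in all 5 groups, while CSF1R lay above the array median, between 5.245 and 5.48. CD3E lay between 5.07 and 5.255, and the mean over the 7 leukocyte markers between 4.11 and 4.13. Which cells gave the CD14 signal was not tested.

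SAA1 and SAA2 encode serum amyloid A, the acute phase apolipoprotein. Their shared probe set 208607_s_at read 9.36, 9.25, 9.42 and 9.40 in control, 6.88, 6.94, 6.96 and 6.99 in siAPC, and 7.12, 7.16, 7.07 and 7.15 in sibcat cells. It read 7.46, 7.52, 7.89 and 7.81 in siAPC/siTAZ and 7.56, 7.61, 7.66 and 7.59 in sibcat/siTAZ cells. The shared signal was lowest with a single siRNA and lay between those groups and control with TAZ siRNA added, with no overlap among the 3 levels. The second shared probe set, 214456_x_at, gave the same 3 levels, with means of 10.36 in control, 8.36 and 8.45 in siAPC and sibcat cells, and 8.94 in both combined depletions.

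C3, the central protein of the complement cascade, read 11.14, 11.13, 11.30 and 11.26 in control cells. It read 10.30, 10.32, 10.30 and 10.30 in siAPC and 10.22, 10.27, 10.34 and 10.55 in sibcat cells. With TAZ siRNA added it read 11.40, 11.35, 11.40 and 11.36 in siAPC/siTAZ and 10.90, 10.81, 10.87 and 10.93 in sibcat/siTAZ cells. C3 was thus low in both single depletions, which overlapped, intermediate in sibcat/siTAZ cells, and above every control array in siAPC/siTAZ cells. The differences from control were -0.90 ± 0.06, -0.86 ± 0.06, -0.33 ± 0.06 and 0.17 ± 0.06 in siAPC, sibcat, sibcat/siTAZ and siAPC/siTAZ cells.

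**Figure D3:**
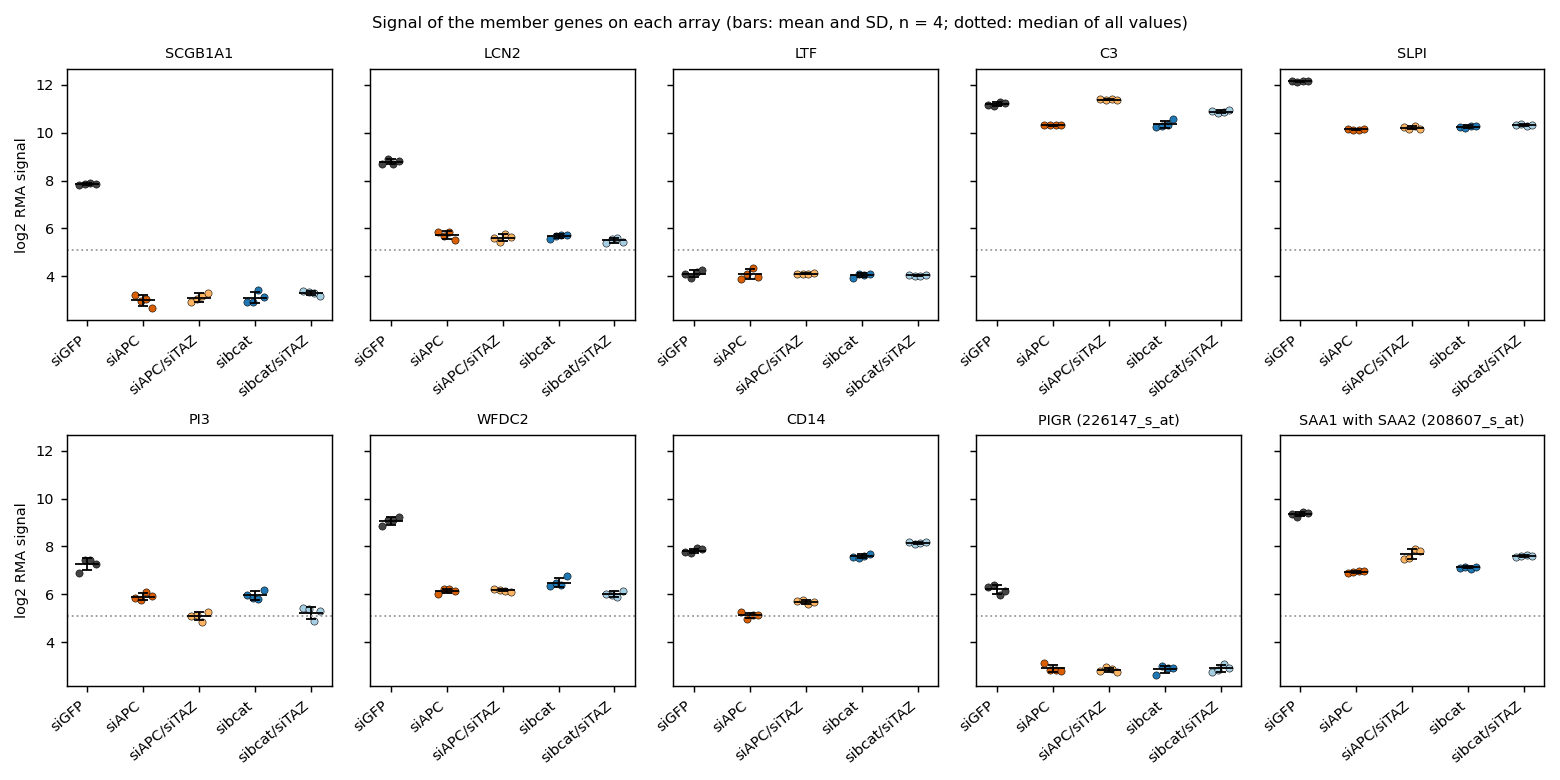
Log2 RMA signal (vertical axis) of each member on each of the 20 arrays, by group (horizontal axis); points are arrays, bars are the mean and SD of 4 arrays, and the dotted line is the median of all values, 5.09. SCGB1A1 and PIGR probe set 226147_s_at drop under the dotted line in every depleted group, LTF stays under it throughout, and CD14, C3, PI3 and SAA1/SAA2 differ between single and combined depletions.

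Adding TAZ siRNA was tested within each background. These comparisons are not fully independent of the choice of members, which was made with earlier results of these arrays known and on differences from control that the single depletion arrays share. The falls of SCGB1A1 and CD14 were a ground for choosing them, so their changes are given as descriptions without a test. With TAZ siRNA, C3 and the shared SAA1/SAA2 signal rose and PI3 fell in both backgrounds, and LCN2, LTF and SLPI did not pass the test in either. In siAPC cells 2 of 9 members were called higher and 1 lower, beside 20.7% of all genes higher and 22.8% lower. In sibcat cells 2 were called higher and 3 lower, beside 18.0% higher and 13.7% lower. The 2 higher were C3 and CD14 in both backgrounds, and the call of CD14 is not read as a test. Counts this small are not read as a result about the set. The median difference of the 9 members was 0.0275 in siAPC and -0.0025 in sibcat cells, against -0.025 and 0.005 over all genes. The members that passed the test moved in both directions, and they are given one at a time.

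C3 rose by 1.07 ± 0.06 (SE; 2.10-fold) from siAPC to siAPC/siTAZ cells (limma, adjusted p = 5.63e-12) and by 0.53 ± 0.06 (1.45-fold) from sibcat to sibcat/siTAZ cells (adjusted p = 3.49e-07). CD14 was higher by 0.56 ± 0.06 in sibcat/siTAZ than in sibcat cells (1.47-fold). It was higher by 0.56 ± 0.06 in siAPC/siTAZ than in siAPC cells. Both are descriptions for the reason above. For both genes, all 4 arrays with TAZ siRNA lay above all 4 without it in each background. The shared SAA1/SAA2 probe sets were tested in a fit of every probe set, in which 19.1% rose and 16.4% fell in siAPC cells and 12.7% rose and 9.90% fell in sibcat cells. Probe set 208607_s_at rose by 0.73 ± 0.07 in siAPC (adjusted p = 9.62e-08) and by 0.48 ± 0.07 in sibcat cells (adjusted p = 4.68e-05). Probe set 214456_x_at rose by 0.58 ± 0.06 (adjusted p = 1.43e-07) and 0.49 ± 0.06 (adjusted p = 3.23e-06).

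PI3 fell by 0.83 on the log2 scale in siAPC cells (SE 0.13, 1.77-fold, adjusted p = 2.87e-05) and fell by 0.72 in sibcat cells (SE 0.13, 1.65-fold, adjusted p = 0.000226). Its second probe set fell by 0.95 (adjusted p = 8.62e-08) and fell by 0.85 (adjusted p = 9.11e-07) in the fit of every probe set. WFDC2 fell by 0.48 in sibcat cells (SE 0.09, adjusted p = 0.000269) and differed by 0.01 ± 0.09 in siAPC cells (adjusted p = 0.945). The WAP members therefore did not share 1 response: SLPI differed by 0.065 ± 0.04 in siAPC (adjusted p = 0.174) and 0.0675 ± 0.04 in sibcat cells (adjusted p = 0.194). PIGR by its brighter probe set fell by 0.24 in sibcat cells (adjusted p = 0.0467). That call rests on single arrays, with an adjusted p of 0.159 without sibcat replicate A, and the other probe set differed by 0.0325 ± 0.10 (adjusted p = 0.874).

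SCGB1A1, given as a description, differed by 0.12 ± 0.11 with TAZ siRNA in siAPC cells (95% interval -0.12 to 0.36) and by 0.20 ± 0.11 in sibcat cells, where it was 0.31 without sibcat replicate C. LCN2 differed by -0.11 ± 0.08 (adjusted p = 0.302) and -0.18 ± 0.08 (adjusted p = 0.103). LTF, in its low range, differed by 0.0275 ± 0.08 (adjusted p = 0.823) and -0.0025 ± 0.08 (adjusted p = 0.989). A signal already in the low range of the array, as SCGB1A1 and PIGR probe set 226147_s_at have, leaves little room to register a further fall.

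**Figure D4:**
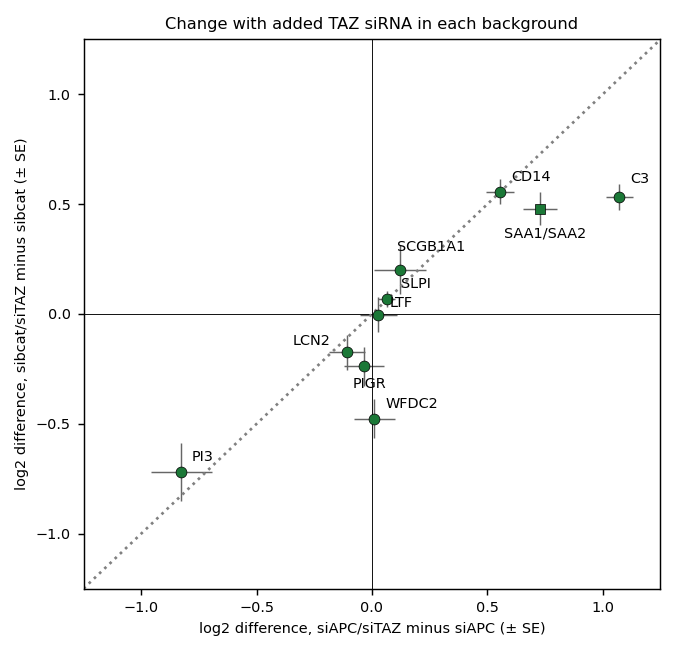
Log2 change with added TAZ siRNA in siAPC cells (horizontal axis) and in sibcat cells (vertical axis) for the 9 members in the fit (circles) and SAA1/SAA2 probe set 208607_s_at (square), with standard errors; the dotted line marks equal change. CD14 lies on the line at 0.56, C3 lies to its right at 1.07 and 0.53, PI3 lies low on both axes, and WFDC2 lies low on the vertical axis only.

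The TAZ siRNA effect itself differed between backgrounds for 2 of 9 members, C3 and WFDC2, both higher in siAPC cells, beside 12.2% of all genes higher and 15.5% lower in this contrast. For C3 the difference between the effects was 0.54 ± 0.08 (95% interval 0.37 to 0.71, limma, adjusted p = 3.32e-05). For WFDC2 it was 0.49 ± 0.13 (adjusted p = 0.00585), but 0.19 (adjusted p = 0.161) when its 3 probe sets, 2 of them dim, were averaged. CD14 showed effects that differed by -0.0025 ± 0.08, with a 95% interval of -0.18 to 0.17, also a description. PI3 showed a difference of -0.11 ± 0.19 (95% interval -0.50 to 0.29, adjusted p = 0.752). The shared SAA1/SAA2 signal by 208607_s_at showed 0.25 ± 0.11 (adjusted p = 0.12).

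Between the 2 single depletions most members stood close together. LTF and SCGB1A1 lay in the low range of the array in both groups, so their closeness says little. Of the 9, 3 were lower in siAPC than in sibcat cells and 0 higher (limma, 0 also at an unadjusted p under 0.05), beside 17.5% of all genes lower and 16.3% higher. CD14 is one of the 3, with a difference of -2.47 ± 0.06 (5.55-fold lower in siAPC cells), which is a description since its fall was a ground for its choice. WFDC2 was lower by a difference of -0.34 ± 0.09 (adjusted p = 0.00506), though -0.15 (adjusted p = 0.0966) with its probe sets, 2 of them dim, averaged. SLPI differed by -0.12 ± 0.04 (adjusted p = 0.0196), which did not hold when only the arrays of the compared groups were fitted (adjusted p = 0.0745). LCN2 differed by 0.0525 ± 0.08 (95% interval -0.11 to 0.22, adjusted p = 0.685), PI3 by -0.05 ± 0.13 (adjusted p = 0.835) and C3 by -0.04 ± 0.06 (95% interval -0.16 to 0.0803, adjusted p = 0.671). SCGB1A1, also a description here, differed by -0.12 ± 0.11.

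Between the combined depletions, siAPC/siTAZ against sibcat/siTAZ, 1 of 9 members was higher and 2 were lower, beside 20.8% of all genes higher and 24.2% lower. C3 was higher by 0.50 ± 0.06 in siAPC/siTAZ cells (1.41-fold, adjusted p = 3.33e-07), where the single depletions had overlapped. CD14, counted among the 2 lower, stood -2.48 ± 0.06 from sibcat/siTAZ cells. That gap is of the same size as between the single depletions and, like it, a description. SLPI was lower by a difference of -0.12 ± 0.04 (adjusted p = 0.0126), with an adjusted p of 0.0503 without siAPC/siTAZ replicate B. WFDC2 differed by 0.15 ± 0.09 (adjusted p = 0.204).

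The wider families of the members gave a mixed picture with TAZ siRNA. In siAPC cells 20.7% of all genes rose and 22.8% fell, and in sibcat cells 18.0% rose and 13.7% fell. The secretoglobins, relatives of SCGB1A1, had 0 of 7 measured genes called in either background by limma, and 0 at an unadjusted p under 0.05. Of 14 other WAP family genes, 3 fell in siAPC and 1 in sibcat cells, with WFDC3 falling in both (-0.40 and -0.56). Among 18 epithelial antimicrobial genes, 5 rose and 1 fell in each background. DEFB1, a beta-defensin, rose by 0.90 in siAPC and 0.77 in sibcat cells. S100A8, a subunit of the zinc-binding calprotectin, rose by 0.85 and 0.51. RNASE7, an antimicrobial ribonuclease of skin, rose by 1.06 in siAPC cells, and its mean was 4.59 in sibcat and 4.94 in sibcat/siTAZ cells.

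Complement genes beside C3 included rises larger than its own. Of 22 measured, 6 rose and 1 fell in siAPC cells, beside 20.7% of all genes higher and 22.8% lower. In sibcat cells 8 rose and 3 fell, beside 18.0% higher and 13.7% lower. The median over the list was -0.00625 and 0.035, so the rises lay in a few genes. C1S and C1R, the proteases that start the classical pathway, rose by 1.50 and 1.12 in siAPC and by 1.40 and 1.28 in sibcat cells. CLU, clusterin, which blocks the terminal complex, rose by 1.39 and 0.80. CFI, a protease that inactivates C3b, rose by 0.76 in siAPC cells, and its mean was 6.755 in sibcat and 7.115 in sibcat/siTAZ cells. CFB, the factor that joins C3b in the alternative pathway, rose by 0.58 in sibcat cells. Among 15 acute phase genes, 2 rose and 2 fell in siAPC cells and 1 rose and 2 fell in sibcat cells. SERPINA3, an acute phase protease inhibitor, rose by 0.30 in siAPC cells and fell by 0.58 in sibcat cells.

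**Figure D5:**
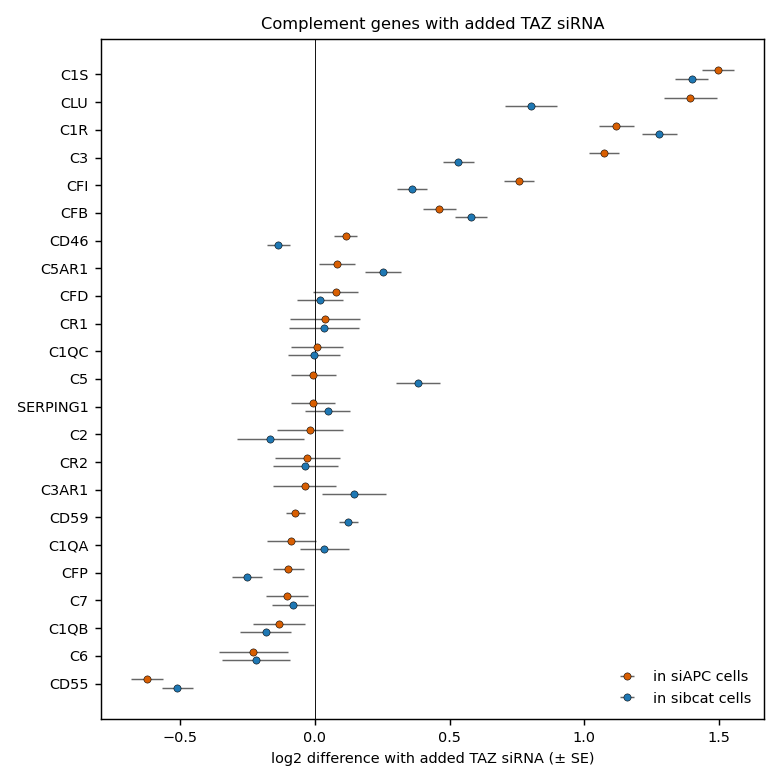
Log2 difference with added TAZ siRNA (horizontal axis, with standard errors) for C3 and the 22 other complement genes measured (vertical axis), in siAPC and in sibcat cells. C1S, CLU, C1R and C3 lie at the top, with rises of 1.50, 1.39, 1.12 and 1.07 in siAPC cells, and most of the list lies near 0.

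Around CD14, of 14 genes of lipopolysaccharide and Toll-like receptor signalling, 5 rose and 3 fell in siAPC cells, and 4 rose and 3 fell in sibcat cells. The shares of all genes were 20.7% higher and 22.8% lower in siAPC cells, and 18.0% and 13.7% in sibcat cells. IRAK2, a kinase of the receptor complex, rose by 1.60 and 1.30. TLR3, a receptor for double-stranded RNA, rose by 1.48 and 0.57, and TLR5, the flagellin receptor, by 1.11 and 0.51. TLR4, the partner of CD14, fell by 0.44 in sibcat cells. Of 23 regulators of secretory and acute phase genes, 16 rose and 2 fell in siAPC cells and 13 rose and 3 fell in sibcat cells, with list medians of 0.24 and 0.21. NFKBIZ, an NF-kB cofactor that acts on LCN2 in other settings, rose by 1.03 and 0.90, and IL1B by 0.90 and 0.70. IL6 rose by 1.08 in siAPC cells, where SOCS3, the feedback inhibitor of its receptor, fell by 1.07. The means of IL6 in sibcat and sibcat/siTAZ cells were 8.05 and 8.475. IL1A rose by 0.96 and NFKBIA by 0.65 in sibcat cells.

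Among luminal identity genes more fell than rose. Counts here stand beside 20.7% of all genes higher and 22.8% lower in siAPC cells, and 18.0% and 13.7% in sibcat cells. Of 20 measured, 3 rose and 8 fell in siAPC cells, and 0 rose (0 also at an unadjusted p under 0.05, limma) and 10 fell in sibcat cells, with medians of -0.12 and -0.17. KRT7, a luminal keratin, fell by 1.54 and 1.68, and KRT8 fell by 1.47 and 1.09. CD24 and ALDH1A3, luminal surface and progenitor markers, fell by 1.06 and 1.02 in sibcat cells. Of 11 milk protein genes, 3 rose and 1 fell in siAPC cells and 2 rose in sibcat cells, with XDH, the xanthine dehydrogenase of milk fat globules, rising by 0.98 and 0.24. Of 6 fibroblast markers, 4 rose and 1 fell in siAPC cells and 3 rose in sibcat cells with TAZ siRNA. Their mean over 6 genes was 6.38 in siAPC, 7.80 in siAPC/siTAZ, 6.39 in sibcat and 7.42 in sibcat/siTAZ cells, against 6.75 in control. The collagen gene COL3A1 moved most, with means of 5.08, 9.86, 4.55 and 8.16 in those 4 groups. COL1A1 read 8.54, 11.22, 8.76 and 10.58, and DCN, decorin, 11.32, 12.51, 11.85 and 12.76. COL1A2 changed less, at 4.495, 4.81, 4.335 and 4.445. PDGFRB went the other way, at 6.05, 5.62, 5.98 and 5.85, and its fall with TAZ siRNA was called only in siAPC cells. LUM, lumican, the lowest of the 6, stayed between 2.75 and 2.88. Of the 6 breast epithelium markers, 1 rose and 5 fell in siAPC cells and 1 rose and 4 fell in sibcat cells. The part of these changes in the member results was not tested.

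Against control, counts of the same lists are set beside 18.7% of all genes called lower in siAPC and 15.7% in sibcat cells. The shares called higher were 21.3% and 21.4%. Of the 23 regulators, 12 were lower in each single depletion, with 3 higher in siAPC and 5 in sibcat cells. Of the 20 luminal identity genes, 8 were lower in siAPC and 9 in sibcat cells, with 3 higher in each. Of the 18 antimicrobial genes, 8 were lower in each single depletion. Of the 15 acute phase genes, 4 were lower in siAPC and 5 in sibcat cells, and of the 22 complement genes 5 and 6 were. Secretoglobins beside SCGB1A1 had 2 of 7 lower in siAPC and 1 of 7 in sibcat cells, with list medians of -0.0425 and -0.17, and WAP genes beside the members had 1 of 14 and 2 of 14 lower.

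For each member, the genes with the most similar 4 differences from control were found by the root mean square distance over the 4 depleted groups, which share the control arrays. LCN2 and WFDC2 were among each other's nearest genes, at a distance of 0.316 on the log2 scale. The others nearest to LCN2 were VTCN1, an immune checkpoint ligand, at 0.30 and the protease inhibitor SERPINA3 at 0.328. WFDC2 was followed by RARRES1 at 0.319 and PADI2, a protein deiminase, at 0.33. SLPI was nearest to ADIRF at 0.147, to ELF3, an epithelial ETS factor, at 0.167 and to TMPRSS4, a membrane protease, at 0.265. PI3 was nearest to TMCC3 at 0.211, ALPP, placental alkaline phosphatase, at 0.246 and GDPD3 at 0.288.

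CD14 was nearest to ASB9 at 0.251, ACOX2, an enzyme of bile acid synthesis, at 0.369 and PTGFR, the prostaglandin F receptor, at 0.397. These 3 genes were also low with siAPC and near or above control with sibcat: ASB9 differed by -2.56 and 0.16, ACOX2 by -2.05 and 0.0075 and PTGFR by -2.32 and 0.0175. C3 was nearest to PHEX at 0.0871, TLR5 at 0.11 and MAST4 at 0.113. PHEX differed by -0.83 in siAPC and 0.14 in siAPC/siTAZ cells, and TLR5 by -0.91 and 0.20. SCGB1A1 had no close neighbour on this measure. Its nearest, SLC6A14, an amino acid transporter, and GABRP, a GABA receptor subunit, lay at 1.20, and CLDN8, a claudin, at 1.45. The distance is not scaled, so a gene with a fall this large tends to lie far from others. For LTF and PIGR by probe set 204213_at, nearness says little, because their differences were small. Those of LTF lay close to 0 like those of many genes, and those of PIGR between -0.405 and -0.17. LTF was nearest to NEU4, MSH4 and CCDC63, and PIGR to TFAP2C, SERINC2 and PRSS22.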

How the data were processed

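RNA of 20 samples (5 groups of 4) was measured on arrays. The authors deposited log2 signals made with RMA, per the submitters' processing notes, and the log2 scale follows from the values, which run from 1.71 to 14.35. Its version is not stated there. Array medians lay between 5.07 and 5.11, and the number of arrays limits the precision. RMA forces arrays to 1 distribution, so a shift of most genes in 1 direction would be lost.

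Probe sets took their symbols from the platform annotation: 41097 of 54675 carried 1 symbol, 1801 several and 11777 none, and 62 controls were left out. Of those with 1 symbol, 41037 matched a current gene name, and the probe set with the highest mean stood for each of 19775 genes. Limma 3.58.1 (R 4.3.3) estimated 1 mean per group from the 20 arrays together, with moderated variances on 15 residual degrees of freedom. Tests were two-sided, p-values were adjusted by Benjamini and Hochberg's method over every gene, and an adjusted p under 0.05 was a call. The 10 members and the gene lists were chosen with earlier results of these data known. Named beside the members were the siRNA targets, up to 4 called genes of each list with the largest differences when TAZ siRNA was added, and up to 3 nearest genes for each member. Alternatives were another summary of probe sets, every probe set alone, a filter on low signals, other moderation, array weights, centring, a replicate block, fewer groups and each array left out.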

Additional observations from a re-analysis of the deposited data

Results flagged for a closer look

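In 75 groups of 4 arrays, 1 for each member probe set and group, 3 held an array far from the other 3 by Dixon's criterion, and chance alone marks about 1 in 20 such groups. PIGR probe set 204213_at read 5.89 in sibcat replicate A, against 5.65 to 5.68 in the others. PIGR probe set 226147_s_at read 3.14 in siAPC replicate A, against 2.81 to 2.86. C3 read 10.32 in siAPC replicate B, against 10.30 in the other 3, a gap of the last printed digits.

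The effect of TAZ siRNA differed between the backgrounds for 2 members in limma's test of the difference itself. For C3 it was larger in siAPC than in sibcat cells by 0.54 on the log2 scale, and for WFDC2 it was higher in siAPC cells by 0.49, since WFDC2 fell in sibcat cells and did not pass the test in siAPC cells.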

How the results depend on the processing

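Of 36 tested member results, 13 were called, and 8 of these kept their call and direction under all alternatives run. The 23 not called all stayed so. CD14 with TAZ siRNA in sibcat cells, given above as a description, is still counted in the 36, the 13 and the 8. The 5 that lost their call somewhere were PIGR with TAZ siRNA in sibcat cells (adjusted p = 0.314 with probe sets averaged), SLPI and WFDC2 between single depletions, SLPI between combined depletions, and WFDC2 in the difference of TAZ siRNA effects. No result reversed. The count of members called higher in siAPC/siTAZ against control ran from 0 to 1 with single arrays left out. That of members lower in siAPC/siTAZ against sibcat/siTAZ ran from 1 to 2, and was 1 when only the arrays of the compared groups were fitted. In sibcat/siTAZ against sibcat, members higher and members lower each ran from 2 to 3 with single arrays left out. Members lower ran from 2 to 3 in siAPC against sibcat and from 7 to 8 in sibcat against control. Members higher in the difference of TAZ siRNA effects numbered 1 with probe sets averaged. The call lost there was that of WFDC2, for which 203892_at gave 0.49, and the dim 1552261_at and 1553089_a_at gave 0.0625 and 0.01. Why the other counts moved was not tested. Averaging probe sets moved PIGR's difference from control in siAPC cells to -1.81 and that of WFDC2 to -1.16. LTF was removed by the filter on low signals. The main fit did not pair arrays of 1 replicate letter across groups, and the labels do not say whether they belong together. Same-letter residuals had a median correlation of 0.027 over 40 pairs, and 9 of 20 arrays correlated best with their own letter. These values cannot settle whether the arrays were paired. With the replicate block 8680 genes were called in siAPC/siTAZ against siAPC and 6259 in sibcat/siTAZ against sibcat, in place of 8607 and 6264, and no count of members changed. Signals in the low range of the array limit what can be read of LTF, and of SCGB1A1, PIGR probe set 226147_s_at and PI3 probe set 41469_at after depletion.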
